A study of Mus musculus with 3 samples.

Results

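MHC class II presentation was described through 7 genes named for their known roles and by no rule on a measured value. They were chosen with earlier results of these data known, among 55536 annotated genes, of which 22028 were protein-coding. H2-Aa, H2-Ab1 and H2-Eb1 encode chains of the class II molecules, H2-DMa and H2-DMb1 the chains of the peptide loading factor DM, Cd74 the invariant chain, and Ciita the class II transactivator. All 7 were found in the data. The samples were 3 libraries of 1 group, RNA of bone marrow-derived macrophages (BMDM, cells grown in culture from marrow) of C57BL/6J mice, stimulated with lipid A, the bacterial ligand of Toll-like receptor 4, at 100 ng/ml for 50 min. Ribosomal RNA was depleted from total RNA of the cytosolic fraction before sequencing. All libraries carry the same donor entry and separate biological replicate numbers, and whether they came from separate animals or cultures is not stated, so every SD and p-value below measures only the spread between these libraries, which may be technical. Unstimulated cells were not analysed here, so none of these levels can be read as a change after lipid A.

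Class II molecules are pairs of an alpha and a beta chain that display peptides from the endosomes to CD4+ T cells. In the endoplasmic reticulum the invariant chain fills the groove and guides the complex to endosomes, where proteases trim it to a fragment called CLIP, and DM then exchanges CLIP for peptide. Transcription of these genes depends on the transactivator, which does not bind DNA itself but joins a complex of RFX, CREB and NF-Y proteins on the X and Y boxes of their promoters. Macrophages are known to carry less class II than dendritic cells or B cells and to raise it under interferon gamma.

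Promoter stretches of 3 of the 7 genes and of a near copy are printed because they hold letters of the boxes through which the transactivator is known to act. RefSeq (GRCm38.p6, the build called mm10) gave windows for 4 of the 7 genes, namely H2-Aa, H2-Eb1, H2-DMb1 and H2-DMa. The 140 bases below run 5′ to 3′ on the strand of the gene, from 160 to 21 bases before the RefSeq start, for H2-Aa (chr17:34287844-34287983, minus strand), H2-Eb1 (chr17:34305707-34305846, plus strand), H2-DMb1 (chr17:34153031-34153170, plus strand) and its near copy H2-DMb2 (chr17:34145089-34145228, plus strand). Capitals mark the letters TGATTGG, the core of the Y box, and upstream of them either GATGATGC, a stretch of the X box, or TGACGTCA, the cyclic AMP element that CREB proteins bind.
H2-Aa: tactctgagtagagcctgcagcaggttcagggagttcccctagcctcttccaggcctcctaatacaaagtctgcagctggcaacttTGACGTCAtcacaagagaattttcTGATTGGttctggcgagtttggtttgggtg
H2-Eb1: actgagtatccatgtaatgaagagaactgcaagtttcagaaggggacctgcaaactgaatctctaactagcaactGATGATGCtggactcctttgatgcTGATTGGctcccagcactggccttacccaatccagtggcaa
H2-DMb1: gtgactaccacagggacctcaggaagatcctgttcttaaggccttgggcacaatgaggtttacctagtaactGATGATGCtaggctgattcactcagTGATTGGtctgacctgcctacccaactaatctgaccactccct
H2-DMb2: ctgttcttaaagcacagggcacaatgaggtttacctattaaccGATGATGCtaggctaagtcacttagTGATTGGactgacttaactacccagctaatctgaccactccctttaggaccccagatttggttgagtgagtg

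Both kinds of letters stood in the same order and at nearly the same spacing in all 4 stretches. The first letter of the Y core lay 50 bases before the start in H2-Aa, 61 in H2-Eb1, 63 in H2-DMb1 and 92 in H2-DMb2. The upstream letters began 24 bases before the Y core in H2-Aa and H2-Eb1 and 25 bases before it in H2-DMb1 and H2-DMb2. The upstream letters were the cyclic AMP element in H2-Aa and the X box stretch in the other 3. Among 32851 RefSeq windows of the same length (250 bases before to 50 after a start), searched on both strands, 7.82% held the Y core, 0.703% the X stretch, 1.79% the cyclic AMP element, and 66 windows (0.201%) held the Y core with one of the others. These letters were chosen after the sequences were seen, and they do not overlap one another in the 4 stretches. Both windows of H2-DMa held none of the letters, and they lie at other starts than that of its most abundant transcript. The RefSeq start of H2-DMb1 also differs from that in GENCODE, where H2-DMb1-201, with all of the TPM of its gene, begins at 34153072. In H2-DMb1 the marked letters therefore lie downstream of the GENCODE start of that transcript. In H2-DMb2 they lie downstream of 34143307, where the GENCODE gene begins, and the starts of its single transcripts were not compared. H2-DMb1 and H2-DMb2 were 87.4% identical over 111 aligned bases of the printed stretches, and their levels, given below, lay far apart.

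Class II RNA was present in every library, led by the invariant chain. Levels are given as TPM, the abundance of a gene's transcripts relative to all transcripts of its library, which takes gene length into account. The libraries held 33044910, 36769402 and 36522216 expected counts on genes. Of the 7 genes, 6 reached 1 TPM in each library, against 41.4% of protein-coding genes, and 4 reached 10 TPM in each, against 16.8%.

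Cd74 (chromosome 18, 60803848 to 60812652, plus strand, mm10) stood at 168, 117 and 143 TPM in libraries 1, 2 and 3, a mean of 143 ± 25.6 (SD, n = 3). These values rested on 7400, 7708 and 7525 expected counts, and 98.3% of protein-coding genes lay lower. Library 2 was the lowest and library 1 the highest. H2-Aa, the alpha chain of the A molecule (chromosome 17, 34282744 to 34287823, minus strand), stood at 54.3, 38.0 and 48.5 TPM, a mean of 46.9 ± 8.27, in the same order of libraries. Its partner H2-Ab1, the A beta chain (chromosome 17, 34257689 to 34269419, plus strand), stood at 30.1, 25.4 and 26.1 TPM, a mean of 27.2 ± 2.55, in TPM again highest in library 1. H2-Eb1, the beta chain of the E molecule (chromosome 17, 34305867 to 34316674, plus strand), stood at 27.3, 28.0 and 35.3 TPM, a mean of 30.2 ± 4.41, with library 3 above the other two in TPM. For both beta chains the highest library was another one by counts, as given below.

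The DM genes and the transactivator lay lower. H2-DMb1 (chromosome 17, 34153072 to 34160230, plus strand) stood at 10.6, 8.25 and 12.3 TPM, a mean of 10.4 ± 2.02. H2-DMa (chromosome 17, 34119541 to 34139101, plus strand) stood at 7.52, 7.96 and 12.0 TPM, a mean of 9.17 ± 2.48. Both were highest in library 3. Ciita (chromosome 16, 10480059 to 10528418, plus strand) stood at 0.66, 0.54 and 0.86 TPM, a mean of 0.687 ± 0.162, from 127, 168 and 207 expected counts. It was under 1 TPM in all 3 libraries, while its counts were far above the 3 counts taken as the floor, and 54.9% of protein-coding genes lay lower still.

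**Figure D1:**
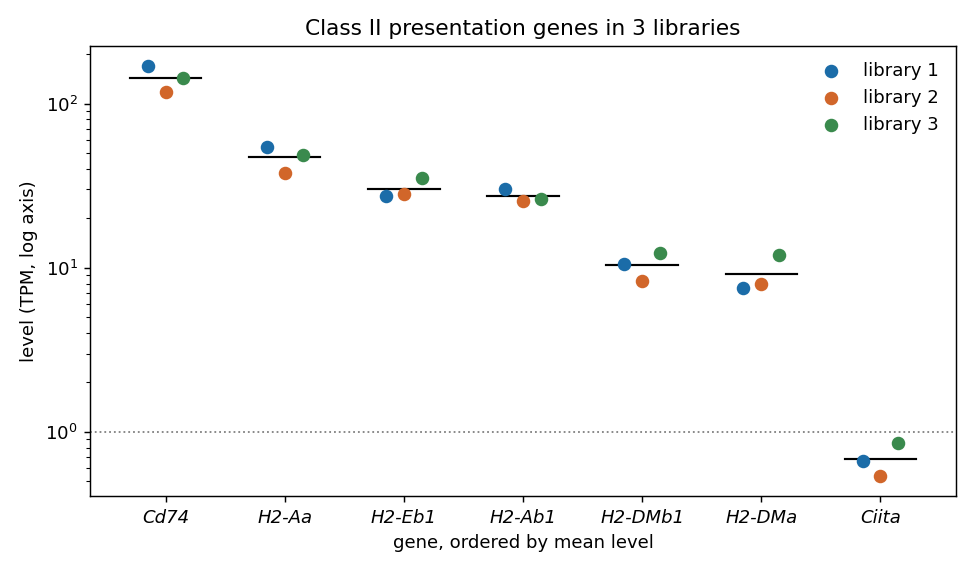
Level of each class II presentation gene in TPM on a log axis, with 1 point per library, the mean as a black bar and 1 TPM as the dotted line. Cd74 lies above 100 TPM in each library and Ciita below 1 TPM in each, with the 5 genes between them from 7.52 to 54.3 TPM.

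The order of the levels, over all transcripts of each gene, was Cd74, H2-Aa, H2-Eb1, H2-Ab1, H2-DMb1, H2-DMa and Ciita. The place of H2-Eb1 rests mostly on transcripts not annotated as coding, described below. Its coding transcripts H2-Eb1-203 and H2-Eb1-201 had means of 5.91 and 0.803 TPM, against 10.4 for H2-DMb1-201. A step in it was taken as larger than the spread when the mean log2 ratio of neighbours exceeded 2 SD over the libraries, a description with no p, since 3 paired values cannot give an exact two-sided p below 0.25. Cd74 exceeded H2-Aa by a log2 ratio of 1.61 ± 0.04, which is 3.04-fold. H2-Aa exceeded H2-Eb1 by 0.63 ± 0.31, with 0.99, 0.44 and 0.46 in libraries 1, 2 and 3, which is just over 2 SD. H2-Ab1 exceeded H2-DMb1 by 1.41 ± 0.28, and H2-DMa exceeded Ciita by 3.73 ± 0.20, or 13.3-fold. The remaining steps lay within the spread. H2-Eb1 over H2-Ab1 was 0.14 ± 0.29, with H2-Ab1 the higher in library 1, and H2-DMb1 over H2-DMa was 0.19 ± 0.26.

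Partner chains were not equally abundant as RNA in the A molecule. The ratio of H2-Aa to H2-Ab1 in TPM was 1.80, 1.50 and 1.86 in the 3 libraries, a mean of 1.72 ± 0.195, so the alpha chain was higher in each. In DM the ratio of H2-DMa to H2-DMb1 was 0.709, 0.965 and 0.979, a mean of 0.884 ± 0.152, with the beta chain higher in each but by less than the spread in the log2 ratio. Cd74 was 1.51, 1.28 and 1.30 times the summed TPM of H2-Aa, H2-Ab1 and H2-Eb1, a mean of 1.36 ± 0.124. RNA of the invariant chain thus exceeded that of the 3 measured chains together in every library.

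The E molecule had RNA for its beta chain, while none was detected for its alpha chain. H2-Ea-ps, the E alpha gene that is annotated as a polymorphic pseudogene and is known to be silent in C57BL/6 mice through a promoter deletion, had a count of 0 in each library. At these depths a count of 0 leaves room for a level of 0.0908 CPM (counts relative to the library total) in library 1, 0.0816 in library 2 and 0.0821 in library 3, by counting error only. H2-Eb1 had 1132, 1555 and 1589 expected counts in the same libraries.

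The other class II genes of the region were low. H2-Oa and H2-Ob, the chains of DO, an inhibitor of DM known from B cells, stood at 0.237 ± 0.0473 and 0.153 ± 0.0635 TPM. H2-Eb2, a gene related to H2-Eb1, stood at 0.0867 ± 0.0252 TPM. H2-DMb2, a second DM beta chain gene, stood at 1.07, 0.38 and 0.50 TPM from 54.0, 29.1 and 30.1 expected counts, below H2-DMb1 in each library. The most abundant H2-DMb1 transcript and H2-DMb2-202 were 94.6% identical over 1219 aligned bases, so some reads may match both genes. The posterior SD that the deposited tables give for the count was 1.36, 1.02 and 1.08 in libraries 1, 2 and 3, for either gene. By that estimate few reads were uncertain between them. Of these 5 region genes, 0 reached 1 TPM in each library. Class I processing genes lie among them, with Psmb8, a subunit of the immunoproteasome, at 56.8 ± 11.9 TPM and the peptide transporter gene Tap1 at 23.0 ± 3.76 TPM.

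**Figure D2:**
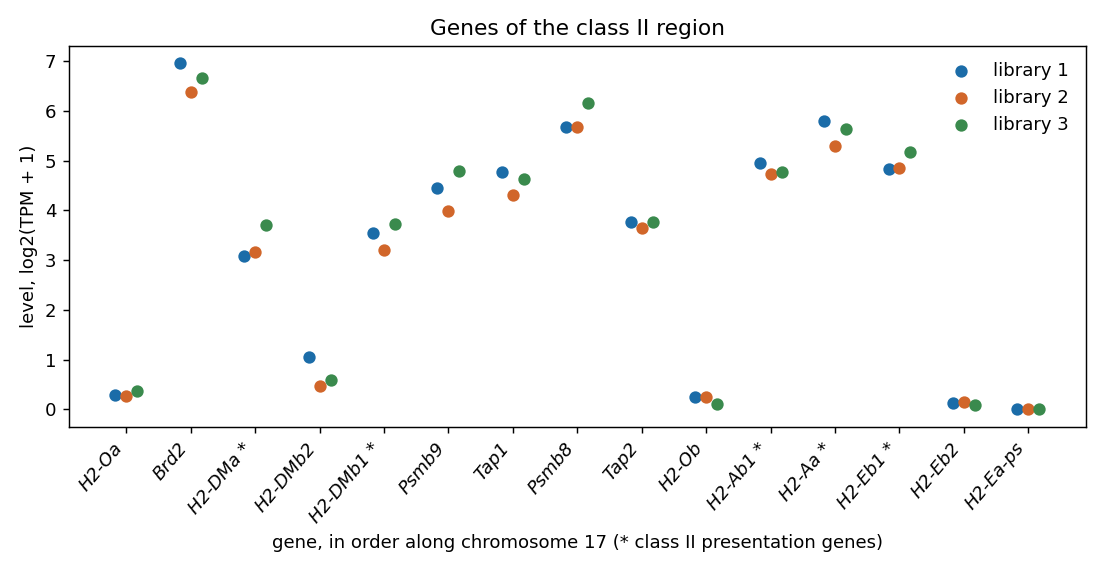
Level as log2(TPM + 1) of 15 genes in their order along the class II region of chromosome 17, with 1 point per library and stars on the class II presentation genes. H2-Aa, H2-Ab1, H2-Eb1 and both starred DM genes lie above 3, while H2-Oa, H2-Ob, H2-Eb2 and H2-Ea-ps lie near 0 beside them.

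The genes differed in which transcripts carried their TPM. The annotation lists 41 transcripts for the 7 genes, 20 of them protein-coding. In 6 of the 7 genes, protein-coding transcripts held most of the TPM in each library, and the exception was H2-Eb1. H2-DMb1-201 held 100% of its gene's TPM, H2-Aa-201 99.2% ± 0.512, H2-Ab1-201 91.9% ± 2.34 and H2-DMa-205 90.1% ± 3.13.

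Of H2-Eb1, the largest share of TPM in each library lay on H2-Eb1-205, a transcript annotated as a target of nonsense-mediated decay, the pathway that removes RNAs with an early stop codon. Its share was 65.4%, 46.3% and 53.1% in libraries 1, 2 and 3, a mean of 54.9% ± 9.72, and 57.8% in the second quantification. Without replicate 1 the mean was 49.7%. Protein-coding transcripts held 29.1%, 20.5% and 18.3%, a mean of 22.6% ± 5.66, which was below the share of H2-Eb1-205 in each library. Transcripts that retain an intron held 5.49%, 33.2% and 28.6%, so library 1 stood apart with the lowest share. H2-Eb1-205 differs from the coding H2-Eb1-203 by 53 bases missing at the start of an internal exon (chromosome 17, 34309591 to 34309643), which is not a multiple of 3, by 59 bases at the 5′ end and by 475 bases at the 3′ end. The posterior SD that the deposited tables give for its count was 42.2, 44.8 and 43.4, on 651, 704 and 819 expected counts. The share of H2-Eb1-203 was less sure, at 19.7% ± 1.71 in the first quantification and 8.40% in the second. Counts of reads across the exon boundary were not analysed here.

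Nuclear long noncoding RNAs were highest in library 2 in log2 CPM (log2 counts relative to library size), like the retained intron share of H2-Eb1, for 5 of 5 with enough counts, against 31.2% of all tested genes. Malat1, the most abundant, stood at 647, 719 and 212 TPM in libraries 1, 2 and 3, and Meg3, the lowest of the list, was listed at 0. Xist and Kcnq1ot1 were lowest in library 1, as that share was, and Malat1, Neat1 and Firre were lowest in library 3. The log2 CPM of Xist deviated from its mean by -0.69, 0.85 and -0.16, and that of Malat1 by -0.10, 1.19 and -1.09. Other class II genes did not all follow H2-Eb1. The retained intron share was 10.7%, 5.87% and 4.33% for H2-Ab1 and 12.1%, 11.1% and 5.75% for Ciita, both highest in library 1. That of Ciita rested on only 9.62, 10.9 and 7 expected counts. In the second quantification it was highest in library 2, at 4.91%, 10.8% and 4.39%. H2-Ab1 stayed highest in library 1 there, at 7.02%, 6.89% and 4.16%. In the first quantification the share was highest in library 2 for Cd74 and H2-Aa, at 0.248% and 0.869%. For H2-DMb1 and H2-DMa it was 0 in each library, and in the second H2-DMa had 1.98% in library 2. The part of nuclear RNA in these shares was not tested.

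Cd74 was divided between a pair of coding forms. Cd74-201 held 80.9%, 78.3% and 80.6% of TPM, a mean of 79.9% ± 1.43. Cd74-202, with an added in-frame exon of 192 bases (chromosome 18, 60811294 to 60811485), held 19.1%, 21.5% and 19.2%, a mean of 19.9% ± 1.35. The long form of the invariant chain is known to carry an added domain that inhibits cathepsins. The short form was thus the larger in each library.

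Ciita is known to be transcribed from alternative promoters that different cell types use. Its annotated transcripts began in 3 groups of 5′ ends on chromosome 16, which were not matched to the named promoters. The middle group (10488178 to 10488279), with Ciita-201, held 72.7%, 72.2% and 71.3% of TPM, a mean of 72.1% ± 0.743. The upstream group (10480059 to 10480164) held 14.6% ± 2.29 and the downstream group (10489746 to 10489783) 13.4% ± 2.06. In the second quantification these shares were 60.1%, 25.6% and 14.4%, so the middle group was the largest in both. Upstream and downstream groups rested on few reads, from 9.62 to 23.7 and from 4 to 5.43 expected counts. Ciita-201 also differs from the long transcripts of the other groups by 1992 further bases at its 3′ end, so reads there count towards the middle group wherever transcription began.

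**Figure D3:**
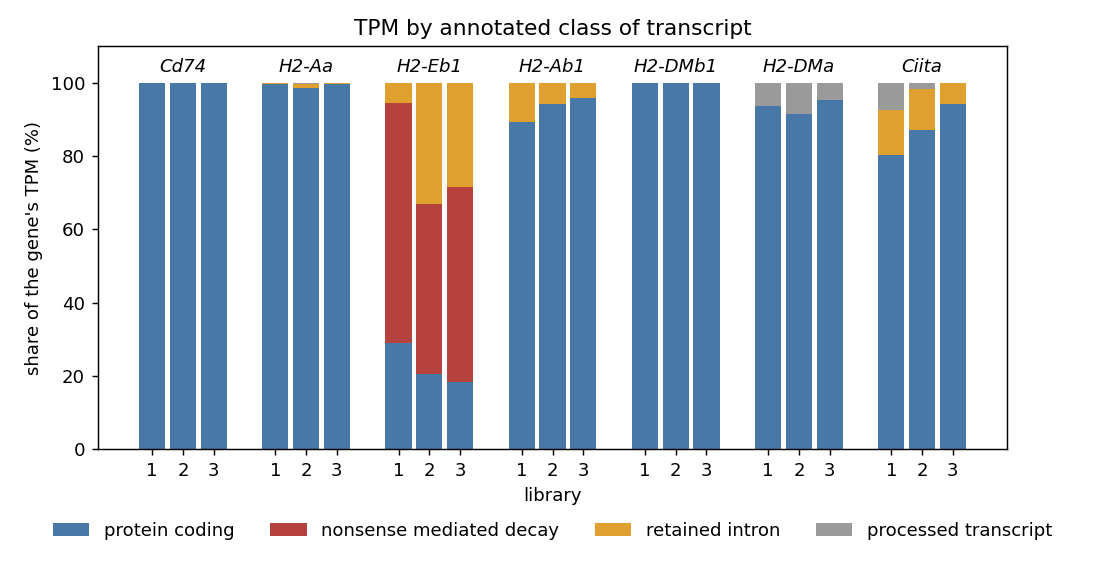
Share of each gene's TPM in percent by annotated class of transcript, with 1 bar per library. In H2-Eb1, the only gene here with a transcript annotated for nonsense-mediated decay, that class (46.3% to 65.4%) exceeds the coding class in each library.

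Exons of H2-DMa and Ciita overlap those of neighbours on the opposite strand, and the strand setting of the counting is not given in the sources used here. Exons of H2-DMa share 360 bases with Brd2, which stood at 102 ± 20.4 TPM, and exons of Ciita share 329 bases with Dexi, at 2.82 ± 0.272 TPM. Without strand, reads from these stretches cannot be told apart. Only H2-DMa-206 and H2-DMa-208, at means of 0 and 0.327 TPM, reach into Brd2, which ends at 34122634. H2-DMa-205, with 90.1% of the TPM of its gene, begins at 34135628. The posterior SD of the gene count was 0.44, 0.67 and 0.78 for H2-DMa in libraries 1, 2 and 3. For Ciita it was 0 in each.

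No class II gene varied between the libraries beyond what edgeR allowed for genes of its level. The edgeR goodness of fit test on counts, with Benjamini-Hochberg adjustment at 0.05, called 203 of 12231 genes (1.66%; 785 at an unadjusted p under 0.05) and 0 of the 7 class II genes (1, H2-DMa, at an unadjusted p under 0.05). The 5 nuclear RNAs above were all called. By the estimated counts of the second quantification it called 0 of 7, with 0 at an unadjusted p under 0.05. On simulated libraries this test called 23 of 100 genes moved 2-fold in 1 library and 100 of 100 moved 4-fold, so a 2-fold difference between libraries would often be missed. The simulation gave all genes the same dispersion (spread between libraries) and moved only genes above a minimum mean count. Its rates therefore need not hold at the level of each class II gene.

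H2-DMa came closest to the threshold. Its log2 CPM was 3.04, 3.61 and 3.87 in libraries 1, 2 and 3, lowest in library 1 (edgeR adjusted p = 0.567). Ciita, with log2 CPM of 1.94, 2.23 and 2.48, was also lowest in library 1 and highest in library 3 (edgeR adjusted p = 1.00). H2-DMb1 had the same order with a narrower range, deviating from its mean by -0.14, -0.03 and 0.17 log2 units. H2-Aa and Cd74 ran the other way within small ranges, with log2 CPM of 5.98, 5.95 and 5.92 for H2-Aa and 7.80, 7.75 and 7.66 for Cd74. On this scale neither was lowest in library 2, where both had their lowest TPM. Protein-coding genes held 38.4%, 26.6% and 34.8% of all TPM in libraries 1, 2 and 3. Of the expected counts on genes they held 91.8%, 87.1% and 89.4%. Rescaled to protein-coding genes, H2-Aa stood at 142, 143 and 140 TPM. H2-Ab1 and H2-Eb1 were highest in library 2 by counts, with log2 CPM of 5.16, 5.42 and 5.10 for H2-Ab1 and 5.09, 5.44 and 5.42 for H2-Eb1. Rescaled to protein-coding genes, library 2 was again the highest for both, at 95.5 and 105 TPM.

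Of the 7 genes, 2 were highest in library 1, 2 in library 2 and 3 in library 3, against 36.8%, 31.2% and 32% of all tested genes. Library 1 was the lowest for 4 of them and library 3 for 3, against 38.3% and 29.8%. In log2 CPM, the median of the 7 deviations from the mean was -0.14 in library 1, 0.02 in library 2 and 0.10 in library 3, beside medians within 0.01 of 0 over all tested genes. The genes nearest to this median profile among 4384 at 10 TPM or more were Cbx3, Myl12a, Bcl2l1, Arhgap9 and Samhd1, at distances of 0.0125 to 0.0154 log2 units over the 3 libraries. Of the 4384 genes, 45.3% lay within 0.216, the median distance of the class II genes themselves, so this likeness separates few genes.

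**Figure D4:**
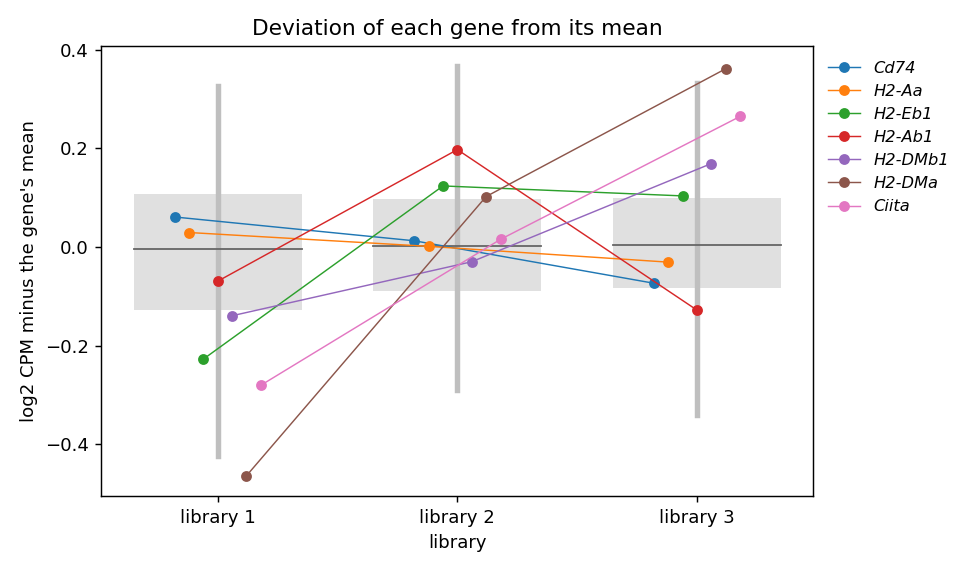
Deviation of log2 CPM from each gene's own mean in the 3 libraries, with lines for the class II genes, grey boxes for the 25th to 75th percentile of all 12231 tested genes, grey bars for their 5th to 95th percentile and a dark line at their median. H2-DMa spans the widest range, from -0.46 to 0.36, and H2-Aa the narrowest, from -0.03 to 0.03.

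The machinery around the class II genes was present at higher levels than the transactivator. All 7 subunits of the promoter complex that were listed reached 1 TPM in each library, with a median of 5.10 TPM. The RFX genes Rfx5, Rfxap and Rfxank stood at 2.82 ± 0.486, 5.10 ± 2.16 and 2.74 ± 0.722 TPM, and Creb1 at 8.21 ± 2.72 TPM. Of the NF-Y subunits, which bind the Y box, Nfya stood at 27.1 ± 4.52 TPM and Nfyb at 2.51 ± 0.568 TPM. None of the 7 was called as varying between libraries.

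Listed signalling and lineage factors upstream of Ciita all reached 1 TPM, 10 of 10, with a median of 57.1 TPM. Irf1, a transcription factor that carries the interferon gamma signal to Ciita, stood at 301 ± 112 TPM, and Jak2, a kinase of the receptor, at 8.80 ± 0.961 TPM. Irf1 was 270, 208 and 426 TPM in libraries 1, 2 and 3. Both receptor chains, Ifngr1 and Ifngr2, stood at 58.5 ± 10.4 and 32.5 ± 7.53 TPM. Il10, a cytokine known to lower class II at the cell surface, was the 1 called gene of the list, with 220, 88.4 and 115 TPM and thus highest in library 1 (edgeR adjusted p = 0.0377). Its effect on these levels was not measured.

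The endosomal enzymes stood highest, and all 6 reached 1 TPM (median 790 TPM). Ctss, which makes the last cuts in the invariant chain, stood at 968 ± 89.1 TPM, and Ctsl, which can act in its place, at 209 ± 13.7 TPM. The aspartic protease gene Ctsd stood at 4369 ± 613 TPM and Lgmn, the asparagine endopeptidase, at 613 ± 76.3 TPM. Ifi30, a thiol reductase that unfolds antigens, was lowest at 26.1 ± 2.65 TPM. Of the turnover genes, March1, a ubiquitin ligase that sends class II to degradation, stood at 27.2 ± 6.09 TPM, its relative March8 at 18.5 ± 4.35 TPM and Cd83, which opposes March1, at 404 ± 77.4 TPM. None of these 9 genes was called between libraries.

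Class I presentation, set beside class II for scale, had a median of 137 TPM over 7 genes, against 27.2 TPM over the 7 class II genes and 0.197 TPM over all protein-coding genes. B2m, the light chain of class I molecules, stood at 2217 ± 648 TPM, and H2-K1 and H2-D1, heavy chains, at 1029 ± 262 and 1317 ± 131 TPM. Nlrc5, the class I counterpart of Ciita, stood at 11.4, 8.07 and 12.7 TPM and was above Ciita in each library. Reads of the class I heavy chains may be split with related genes. The posterior SD of the count was 0.41, 0 and 0.31 for H2-K1 and 3.63, 3.26 and 4.11 for H2-D1 in libraries 1, 2 and 3. By that estimate few reads were uncertain. None of these 7 genes was called between libraries.

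Markers of the labelled cell type were high, and those of other cells that carry class II were mostly near 0. All 11 macrophage markers reached 1 TPM, with a median of 413 TPM, from Itgam at 30.9 ± 7.92 to the lysozyme gene Lyz2 at 6416 ± 1364 TPM. Among them were Adgre1, which encodes F4/80, at 185 ± 26.1 TPM and Csf1r at 413 ± 164 TPM, and C1qa was called between libraries (edgeR adjusted p = 0.0155). Of 10 dendritic cell markers, 1 reached 1 TPM in each library, and it was Clec10a, a lectin also known from macrophages, at 14.2 ± 2.92 TPM. Flt3 and Zbtb46, which define conventional dendritic cells, stood at 0.140 ± 0.0458 and 0.110 ± 0.0265 TPM, and Clec9a was lowest at 0.0767 ± 0.0306 TPM. The summed level of the 10 markers was 16.8, 15.7 and 20.6 TPM. Of 10 B cell markers, 2 reached 1 TPM, Ighm at 5.65 ± 1.58 TPM and Cd22 at 3.11 ± 0.934 TPM, Blk had a count of 0 in each library, and the sum was 11.0, 7.31 and 10.6 TPM. In bulk RNA, few cells with much class II RNA and many cells with little cannot be told apart, and the part of such cells in these levels was not tested.

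**Figure D5:**
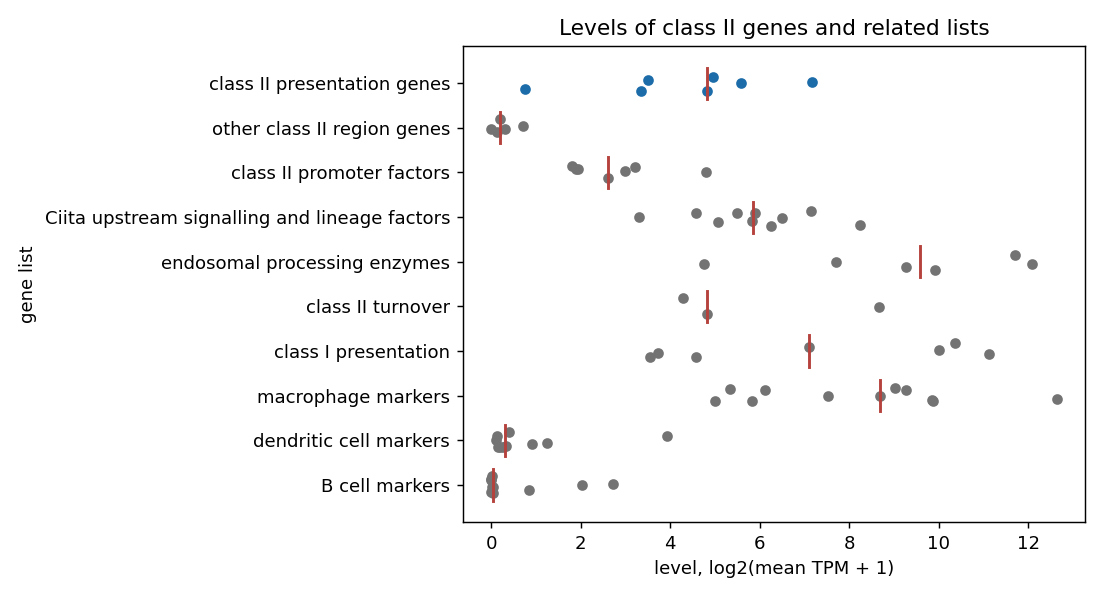
Level as log2(mean TPM + 1) of the class II presentation genes (blue) and of related gene lists (grey), with 1 point per gene and the median as a red line. The endosomal enzymes and macrophage markers have the highest medians, 790 and 413 TPM, and the B cell markers the lowest, 0.0217 TPM.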

How the data were processed

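Cytosolic RNA of 3 libraries of 1 group was analysed. Per library, the authors deposited gene and transcript tables of 1 layout with expected counts (estimated reads per feature, not whole) and TPM, and a second transcript table with estimated counts and TPM, called the second quantification and summed per gene. Per the labels, the build is mm10. Neither programs nor the strand setting were given in the sources used here. Names, classes and coordinates (1-based) came from GENCODE M21, and 26345 listed rows that name no gene were left out.

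TPM is reported as deposited, as mean ± SD over the libraries. TPM depends on what else shares the total, and genes that do not encode protein took most of it. Of the expected counts, in contrast, most lay on protein-coding genes. Expected counts were rounded, filtered with filterByExpr, scaled by TMM and tested with edgeR 4.0.16 (R 4.3.3): the deviance of a fit of 1 mean per gene, with trended dispersion, was set against chi-square, and Benjamini-Hochberg adjustment covered all 12231 genes. log2 CPM used a prior count of 0.5. On simulated counts, drawn with the common dispersion for all genes, the test called 1 of 12031 unmoved genes. DESeq2 1.42.0 gave alternative size factors. Ratios of partner chains were taken per library, and the order of neighbours was judged at 2 SD. Floors are 3 counts and cover counting error only.

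The rule for named genes took the 7 class II genes, overlapping or near-identical genes, the highest and lowest genes of each list, and the 5 protein-coding genes at 10 TPM or more whose log2 CPM deviations lay nearest (Euclidean distance) to the median of the 7. Other list genes were named for their role or their call after their values were seen. Members and lists were chosen with earlier results of these data known. Promoter sequences were read from RefSeq windows and searched on both strands. Some genes of the lists are not reported here by name.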

Additional observations from a re-analysis of the deposited data

How the results depend on the processing

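Of 134 recomputed values, 109 kept their size within 1 SD (counts of genes within 1.5-fold) and 25 moved further. For levels, chain ratios and transcript shares, a mean with 1 replicate left out cannot move beyond 1 SD of the 3 values. Those entries among the 109 were therefore fixed in advance and say nothing about stability. Direction did not enter the count of 109, and no difference beyond the spread changed sign. Both changes of sign were within the spread and are among the 109. H2-Eb1 minus H2-Ab1 went from 0.14 to -0.0012 log2 units without replicate 3. The median deviation in library 3 went from 0.10 to -0.01 without replicate 1. TPM depends on which RNAs share the total. In the second quantification Cd74, H2-Aa, H2-Eb1, H2-Ab1, H2-DMb1, H2-DMa and Ciita stood at 49.3, 15.7, 11.1, 9.33, 3.40, 3.21 and 0.241 TPM, and scaled to protein-coding genes at 430.4, 141, 92.6, 83.1, 31.3, 28.0 and 2.08 TPM. The order of the 7 genes was the same in both, and without replicate 3 H2-Ab1 stood above H2-Eb1. Shares in the second quantification were 77.0% for Cd74-201, 98.7% for H2-Aa-201, 82.5% for H2-DMa-205 and 55.2% for Ciita-201. Among protein-coding transcripts alone they were 100% for H2-Aa-201, 98.8% for H2-Ab1-201, 96.5% for H2-DMa-205 and 79.2% for Ciita-201, and H2-Eb1-205, which is not coding, has no such share. The number of varying genes was 298 with a common dispersion and 89 to 132 with 1 replicate left out, where fewer libraries enter the fit. No class II gene was called under any of these settings. The cause of the other changes was not tested. No paired analysis was possible because the samples form 1 group. With 3 libraries, differences of 2-fold or less between libraries would often be missed by the edgeR test. The minor transcripts of Ciita are at the limit of what the counts show.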
